A study of Mus musculus with 12 samples.

Results

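The genes described here are 9 partners and targets of PRDM16 as they are known from brown fat, namely Pparg, Ppara, Ppargc1a, Ppargc1b, Ctbp1, Ctbp2, Ucp2, Cidea and Fabp4. They were taken by symbol, and all 9 were found in each of the 3 expression tables, among 22339 named symbols that the tables share. The libraries were RNA sequencing of cultured mouse bone marrow cells with a leukaemia fusion gene and either PRDM16 or PRDM16mut, an altered form whose change the labels do not name.

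In brown fat, PRDM16 is a zinc finger protein that binds other regulators and turns precursor cells towards fat that burns fuel for heat. There it works with the fatty acid receptors PPAR-gamma (Pparg) and PPAR-alpha (Ppara) and with the coactivators PGC-1-alpha (Ppargc1a) and PGC-1-beta (Ppargc1b), which raise mitochondrial genes. Through the corepressors CtBP1 and CtBP2 it turns genes of white fat down. Cidea, a lipid droplet protein, is a classical gene of the brown fat programme, Fabp4 is a fatty acid binding protein of fat cells and macrophages under PPAR-gamma, and Ucp2 is a mitochondrial carrier related to the heat-producing Ucp1.

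Each comparison set 2 libraries with PRDM16 against 2 with PRDM16mut, in 3 experiments. For the cotransductions with MLL-AF9 or E2A-HLF, lineage-negative C57BL/6 bone marrow cells received the fusion gene and PRDM16 or PRDM16mut at once and were selected for 10 days with G418 and puromycin. In the MLL-AF9 stable cells, C57BL/6 bone marrow cells that already carried MLL-AF9 received PRDM16 or PRDM16mut and were selected for 10 days with puromycin. All cells were grown in IMDM with 15% FBS and the cytokines SCF, IL6 and IL3, each at 10 ng/ml. The sources used here do not say whether the 2 libraries of a group were separate cultures, so p-values cover just the scatter of these libraries, and that scatter may be technical. No library without either form is among the 12, so a difference may come from PRDM16, from PRDM16mut or from both.

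Values are FPKM, a fragment count scaled by transcript length and library depth, as the authors deposited them. Genes with at least 1 FPKM in at least 2 of the 4 libraries of a table were tested with limma on log2(FPKM + 1), and calls were made where p, adjusted by Benjamini-Hochberg over the whole table, was under 0.05. Log2 fold changes are PRDM16 minus PRDM16mut on that scale, which understates the change of genes at low FPKM. An exact permutation test of 2 libraries against 2 cannot go below p = 0.333, so every call depends on limma borrowing the spread of other genes. The 3 tables were deposited separately and how they were scaled against each other is not stated. Levels set side by side across experiments carry that limit.

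Total depth is unknown, since the tables hold no counts. FPKM sums per library were 570872 to 683269. The ratio of depth of replicate 2 to replicate 1, read from steps of low values, was 1.63 for PRDM16 in the MLL-AF9 cotransduction and 0.916 to 1.17 elsewhere. Prdm16 itself was higher with PRDM16 in the MLL-AF9 cotransduction (83.9 and 119 FPKM, against 29.5 and 30.1 FPKM with PRDM16mut; log2 fold change 1.71, SE 0.162). After E2A-HLF cotransduction it had 49.2 and 56.5 FPKM with PRDM16 and 56.6 and 43.5 FPKM with PRDM16mut, and in the stable cells 77.9 and 80.0 FPKM with PRDM16 and 89.1 and 94.6 FPKM with PRDM16mut (log2 fold change -0.22, limma, adjusted p = 0.0414, lost without a filter, at 0.115, and without any 1 of 3 of the 4 libraries). The tables do not separate the introduced Prdm16 from the cells' own. In the MLL-AF9 cotransduction the form of PRDM16 and the level of Prdm16 RNA differed together, so their parts cannot be told apart. After MLL-AF9 cotransduction the ribosomal RNA precursor Rn45s was listed at 0 in both PRDM16 libraries, against 1542 and 1554 FPKM with PRDM16mut. Hoxa9 there had 0.104 and 0.0957 FPKM with PRDM16 and 30.4 and 30.0 FPKM with PRDM16mut (log2 fold change -4.83). The part of Rn45s and of Hoxa9 in the results was not tested.

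Cell identity was checked with marker lists. All 8 blood cell markers, among them Ptprc (CD45) and Vav1, passed the expression filter in every experiment. After MLL-AF9 cotransduction 6 of them fell and 2, Spn and Laptm5, rose, where 69.5% of all tested genes were called. Kit had 5.29 and 6.07 FPKM with PRDM16 and 46.8 and 47.5 FPKM with PRDM16mut. Cd34 had 5.38 and 4.59 against 20.8 and 21.1 FPKM, and Itgam 42.3 and 45.3 FPKM against 119 FPKM in each PRDM16mut library. Of 8 adipocyte markers, Lep was listed at 0 in all 12 libraries, and Adipoq, Plin1, Cidec and Ucp1 stayed under 0.1 FPKM in each of them. Cfd, a complement factor of fat cells, passed the filter in the stable cells, with 1.04 and 1.05 FPKM with PRDM16 and 1.16 and 1.24 FPKM with PRDM16mut, and Retn reached 0.802 FPKM there. The adipocyte marker above 1 FPKM in every library was Lipe, a hormone-sensitive lipase, at 4.80 to 11.9 FPKM.

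Promoter sequences were available for 6 of the 9 genes, from RefSeq on build GRCm38.p6, as 250 bases before to 50 bases after each annotated start. Those of Pparg and Ucp2 are shown because Pparg was the one member lower by more than 1 log2 unit in any comparison and Ucp2 was the most abundant member in all 12 libraries. All are on the plus strand. Capitals mark 3 motifs searched on both strands: the hexamer AGGTCA that nuclear receptors such as the PPARs recognise, TTGCNNAA, a form of the C/EBP recognition sequence, and GGGCGG, the GC box.
Pparg, the first start, chr6:115360894-115361193: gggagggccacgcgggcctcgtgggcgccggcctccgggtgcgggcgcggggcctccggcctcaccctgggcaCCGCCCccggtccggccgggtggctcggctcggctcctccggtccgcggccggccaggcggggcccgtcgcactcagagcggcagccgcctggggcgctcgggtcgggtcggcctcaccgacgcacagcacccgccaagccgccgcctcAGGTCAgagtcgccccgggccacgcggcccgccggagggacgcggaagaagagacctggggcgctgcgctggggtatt
Pparg, the second start, chr6:115362099-115362398: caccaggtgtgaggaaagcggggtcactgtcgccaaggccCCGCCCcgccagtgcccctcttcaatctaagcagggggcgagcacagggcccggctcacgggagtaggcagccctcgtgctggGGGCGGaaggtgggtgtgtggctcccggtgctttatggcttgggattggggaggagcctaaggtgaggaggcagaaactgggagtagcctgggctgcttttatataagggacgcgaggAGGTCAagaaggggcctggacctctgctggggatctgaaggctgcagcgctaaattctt
Pparg, the third start, chr6:115421816-115422115: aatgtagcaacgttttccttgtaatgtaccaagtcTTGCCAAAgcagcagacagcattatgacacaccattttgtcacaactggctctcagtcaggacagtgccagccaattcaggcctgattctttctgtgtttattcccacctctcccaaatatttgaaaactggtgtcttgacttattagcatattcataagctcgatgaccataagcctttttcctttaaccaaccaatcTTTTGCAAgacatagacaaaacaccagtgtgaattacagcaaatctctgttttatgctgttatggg
Ucp2, chr7:100493108-100493407: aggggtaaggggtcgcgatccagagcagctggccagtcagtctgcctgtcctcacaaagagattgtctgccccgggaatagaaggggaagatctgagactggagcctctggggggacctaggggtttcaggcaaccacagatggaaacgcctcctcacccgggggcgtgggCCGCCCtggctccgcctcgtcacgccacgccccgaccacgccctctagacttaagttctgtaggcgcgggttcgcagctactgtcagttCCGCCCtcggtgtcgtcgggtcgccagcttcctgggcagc
The FPKM are given per gene and do not say which start of Pparg was used.

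The first start of Pparg lies in sequence of 80.3% G and C with AGGTCA at position -28 and GGGCGG at -177, counted for the leftmost base of the match from the start site. The second start had AGGTCA at position -9 and GGGCGG matches at -210 and -127. The third, of 40.3% G and C, had no AGGTCA and carried TTGCNNAA matches at -215 and -16. Ucp2 had GGGCGG matches at positions -79 and 11. Over all 32851 promoter entries, 16.3% held AGGTCA, 10.8% held TTGCNNAA and 35.7% held GGGCGG. The full PPAR element, a direct repeat of AGGTCA with 1 base between the copies, contains that hexamer and occurred in 0.0396% of entries and in none of those of Pparg, Ppara, Ppargc1a, Ctbp1, Ctbp2 and Ucp2. These matches are letters in a window and no measure of binding.

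Of the 27 combinations of a gene and an experiment, 14 passed the expression filter and 7 of these were called. After MLL-AF9 cotransduction 3 members rose and 2 fell with PRDM16, of 6 tested, where 69.5% of all 11071 tested genes were called, 35.6% higher and 34% lower. Ppargc1b, among those that rose, passed the filter only through the PRDM16 libraries, where it is high, and of the other 5 tested 2 rose and 2 fell. The groups of 5 of the 6 did not overlap, as for 86.3% of all tested genes. After E2A-HLF cotransduction 1 rose and 1 fell of 4 tested, where 43.8% of 11010 tested genes were called, 22.7% higher and 21.1% lower. The groups of 3 of the 4 did not overlap, as for 73.7% of all tested genes. In stable cells none of 4 tested members was called by limma, with 2 of the 4 at an unadjusted p under 0.05, where 6.36% of 10580 tested genes were called, 4.2% higher and 2.16% lower. Of all calls in the stable cells 66% were higher, and 51.6% after quantile normalization. The groups of 3 of the 4 members did not overlap, as for 60.6% of all tested genes. Without 1 library, the 673 genes called in the stable cells became 82 (without PRDM16 replicate 1), 67 (PRDM16 replicate 2), 178 (PRDM16mut replicate 1) or 219 (PRDM16mut replicate 2). Counts over so few members are not set apart from these background shares, and the values of the single genes are what follows.

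**Figure D1:**
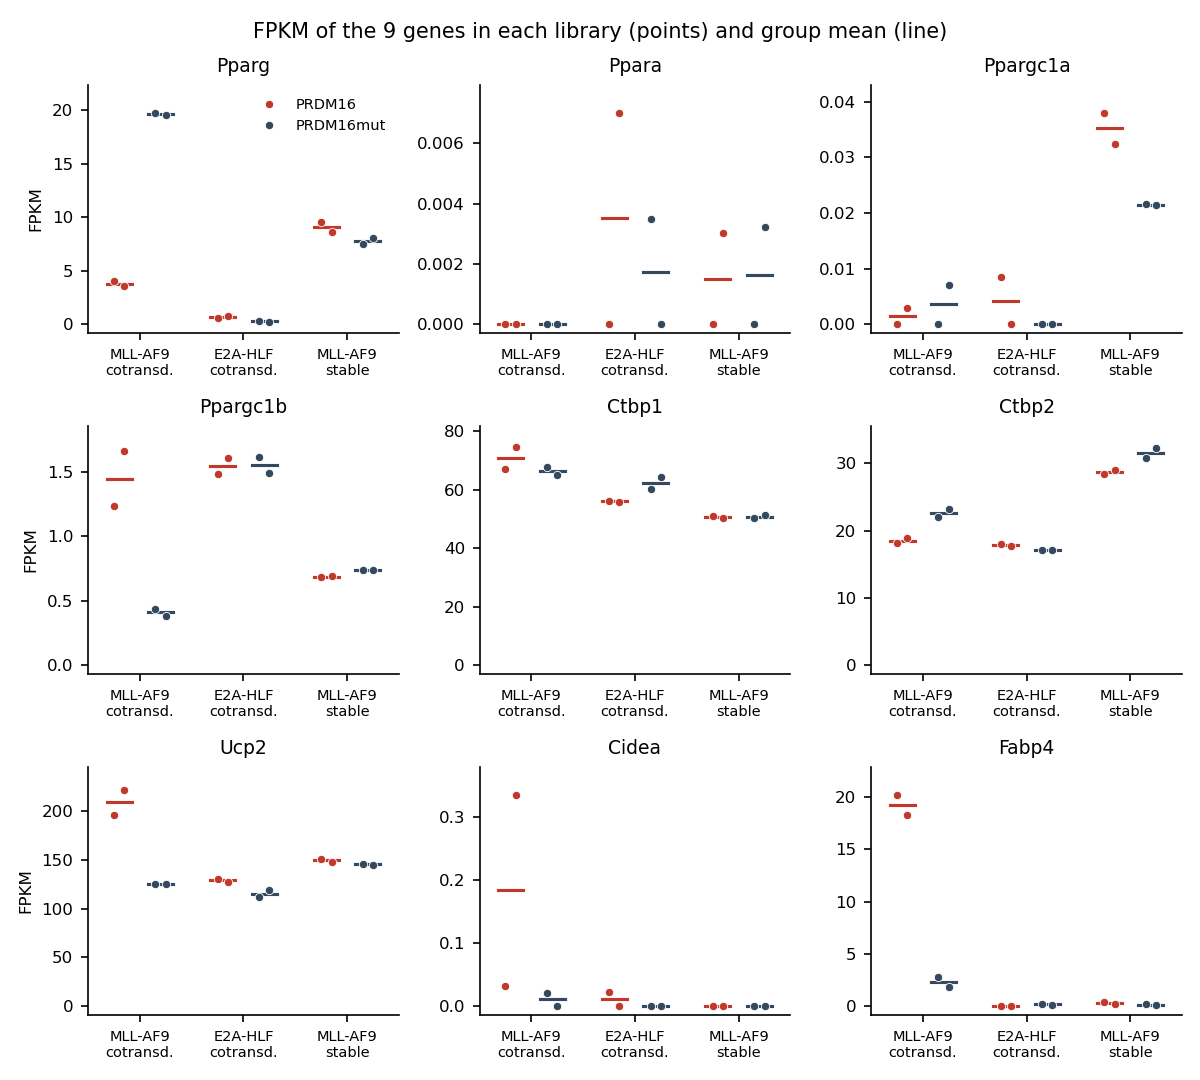
FPKM of the 9 genes (y axis, linear, a separate scale in each panel) in each library, with points for libraries and a short line for the mean of the 2 libraries of a group; red is PRDM16 and dark blue PRDM16mut, for the 3 experiments along the x axis. Pparg and Fabp4 went opposite ways in the MLL-AF9 cotransduction (3.79 against 19.6 and 19.3 against 2.31 FPKM, means of PRDM16 and PRDM16mut), while Ppara, Ppargc1a and Cidea lay near 0 in nearly all libraries.

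Pparg, the fat cell receptor, fell with PRDM16 in the MLL-AF9 cotransduction. It was at 4.07 and 3.52 FPKM with PRDM16 and at 19.7 and 19.5 FPKM with PRDM16mut. Both PRDM16 libraries lay far under both PRDM16mut libraries, with a ratio of means of 0.193. The log2 fold change was -2.11 (SE 0.0751, limma, adjusted p = 1.72e-05), and sign and call were the same without any 1 of the 4 libraries. With a library left out, its group holds 1 library that is taken to vary like the other group, so that this is a limited check.

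In the other experiments both PRDM16 libraries had more Pparg than both PRDM16mut libraries. In stable cells it had 9.56 and 8.62 FPKM with PRDM16 and 7.52 and 8.05 FPKM with PRDM16mut, groups that do not overlap, with a log2 difference of 0.20 that was not called (SE 0.0605, limma, adjusted p = 0.108). After E2A-HLF cotransduction it stayed under the filter, with 0.613 and 0.795 FPKM with PRDM16 and 0.287 and 0.218 FPKM with PRDM16mut. There the groups again did not overlap, and when all genes were tested without a filter the log2 difference of 0.44 was called (limma, adjusted p = 0.0144). The order of levels over the 6 groups was PRDM16mut of the MLL-AF9 cotransduction, PRDM16 and then PRDM16mut of the stable cells, PRDM16 of the MLL-AF9 cotransduction, and PRDM16 and then PRDM16mut of the E2A-HLF cotransduction, with no overlap between neighbours.

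Ppara, the PPAR of liver and heart fat burning, was listed at 0 in all 4 libraries of the MLL-AF9 cotransduction. In the other 8 libraries it did not exceed 0.00701 FPKM, and it was not tested. Ppard, the third receptor of the family, was present in all experiments and moved in opposite directions in the cotransductions. It had 13.3 and 17.3 FPKM with PRDM16 and 8.38 and 8.13 FPKM with PRDM16mut in the MLL-AF9 cotransduction (log2 fold change 0.80, SE 0.122, limma, adjusted p = 0.00250). In the E2A-HLF cotransduction it had 9.44 and 9.14 FPKM with PRDM16 and 14.7 and 14.5 FPKM with PRDM16mut (log2 fold change -0.60, SE 0.0478, limma, adjusted p = 2.42e-04). Rxra, the receptor that pairs with PPARs on DNA, likewise rose in the first (log2 fold change 1.07) and fell in the second (-1.05), where both PRDM16 libraries were under 1 FPKM and it passed the filter only through PRDM16mut.

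Of the PGC-1 coactivators, Ppargc1b was expressed near 1 FPKM and Ppargc1a hardly at all. Ppargc1b rose with PRDM16 in the MLL-AF9 cotransduction, with 1.24 and 1.66 FPKM, against 0.437 and 0.380 FPKM with PRDM16mut. It passed the filter there through the PRDM16 libraries alone, so it had to differ to be tested. Its log2 fold change was 0.79 (SE 0.0985, limma, adjusted p = 0.00118), a ratio of means of 3.54, and with a pseudocount of 0.1 it was 1.59. After E2A-HLF cotransduction it had 1.48 and 1.61 FPKM with PRDM16 and 1.61 and 1.49 FPKM with PRDM16mut, overlapping groups with a log2 difference of -0.004 (SE 0.0692, limma, adjusted p = 0.969). In stable cells it had 0.683 and 0.691 FPKM with PRDM16 and 0.741 and 0.738 FPKM with PRDM16mut, under the filter.

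Ppargc1a, the coactivator that cold induces in brown fat, was not tested in any experiment. In the stable cells it had 0.0380 and 0.0325 FPKM with PRDM16 and 0.0216 and 0.0213 FPKM with PRDM16mut. In the cotransductions it was listed at 0 in 5 of 8 libraries and did not exceed 0.00847 FPKM. At such values a handful of fragments sets the difference, and no fold is given.

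The corepressors Ctbp1 and Ctbp2 were expressed in every library, Ctbp1 at 50.3 to 74.7 FPKM and Ctbp2 at 17.1 to 32.2 FPKM. Their differences were small. After MLL-AF9 cotransduction Ctbp2 fell with PRDM16, with 18.2 and 18.8 FPKM, against 22.0 and 23.2 FPKM with PRDM16mut (log2 fold change -0.27, SE 0.0578, limma, adjusted p = 0.00870). The groups did not overlap, but the call was lost without replicate 1 (adjusted p = 0.0653) and without replicate 2 (adjusted p = 0.140) of the PRDM16mut group. Ctbp1 there had 67.1 and 74.7 FPKM with PRDM16 and 67.9 and 65.2 FPKM with PRDM16mut, overlapping groups with a log2 difference of 0.09 (SE 0.0696, limma, adjusted p = 0.297). Without replicate 1 of the PRDM16 group Ctbp1 was called higher (log2 fold change 0.17, limma, adjusted p = 0.0113).

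After E2A-HLF cotransduction Ctbp1 fell, with 56.1 and 56.0 FPKM with PRDM16, against 60.3 and 64.5 FPKM with PRDM16mut (log2 fold change -0.15, SE 0.0480, limma, adjusted p = 0.0482). This call was lost without replicate 1 (adjusted p = 0.139) or replicate 2 (0.155) of the PRDM16 group, without replicate 2 of the PRDM16mut group (0.185), without a filter (0.0683) and with a filter at 5 FPKM (0.0537). Ctbp2 had 18.1 and 17.7 FPKM with PRDM16 and 17.1 FPKM in each PRDM16mut library (log2 difference 0.06, SE 0.0434, limma, adjusted p = 0.272).

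In stable cells Ctbp1 had 51.1 and 50.3 FPKM with PRDM16 and 50.4 and 51.3 FPKM with PRDM16mut, and Ctbp2 had 28.3 and 29.0 FPKM with PRDM16 and 30.7 and 32.2 FPKM with PRDM16mut. The Ctbp1 groups overlap and the Ctbp2 groups do not. The log2 difference of Ctbp2 was -0.13 (SE 0.0357, limma, adjusted p = 0.0893).

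Ucp2 was the most abundant of the 9 genes in all 12 libraries, between 112 and 222 FPKM, and it rose with PRDM16 in the MLL-AF9 cotransduction. It had 196 and 222 FPKM with PRDM16, against 125 and 126 FPKM with PRDM16mut. Both PRDM16 libraries were well above both PRDM16mut libraries, with a ratio of means of 1.67. The log2 fold change was 0.73 (SE 0.0722, limma, adjusted p = 4.89e-04).

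After E2A-HLF cotransduction Ucp2 had 130 and 127 FPKM with PRDM16, against 112 and 119 FPKM with PRDM16mut, a log2 fold change of 0.16 (SE 0.0496, limma, adjusted p = 0.0443). The groups did not overlap, but the call was lost without replicate 1 (0.192) or replicate 2 (0.117) of the PRDM16 group and without replicate 1 of the PRDM16mut group (0.140). It was also lost without a filter (0.0650), with a filter at 5 FPKM (0.0509), after quantile normalization (0.119) and after median centring (0.0917). In stable cells Ucp2 had 151 and 148 FPKM with PRDM16 and 146 and 145 FPKM with PRDM16mut, a log2 difference of 0.04 (SE 0.0285, limma, adjusted p = 0.388).

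The relatives of Ucp2 were low. Ucp1, which makes heat in brown fat, did not exceed 0.0224 FPKM in any library, and Ucp3, the gene next to Ucp2 in the RefSeq annotation, did not exceed 0.0487 FPKM. Of the carriers nearest to the family, Slc25a14 and Slc25a27 fell in the E2A-HLF cotransduction (log2 fold changes -0.22 and -0.29, limma, adjusted p = 0.0412 and 0.0242; each call held in 1 case of a library left out, and Slc25a27 passed the filter only through the PRDM16mut libraries), and none was called elsewhere. The genes whose 3 log2 fold changes came closest to those of Ucp2 (0.73, 0.16 and 0.04) were H2-M3, Eef2 and Tmem115, of 8834 genes ranked by the largest of the 3 absolute differences. For H2-M3 the 3 values were 0.78, 0.18 and 0.01, within 0.05 of Ucp2.

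Fabp4 rose more than any other member. In the MLL-AF9 cotransduction it had 20.2 and 18.3 FPKM with PRDM16, against 2.82 and 1.81 FPKM with PRDM16mut. The lowest PRDM16 library was far above the highest PRDM16mut library, and the ratio of means was 8.34. The log2 fold change was 2.63 (SE 0.153, limma, adjusted p = 7.83e-05), with the same sign and call without any 1 of the 4 libraries, under the same limit.

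Outside that experiment Fabp4 was under 0.4 FPKM and was not tested. It was listed at 0 in both PRDM16 libraries of the E2A-HLF cotransduction and had 0.205 and 0.147 FPKM with PRDM16mut. In stable cells it had 0.376 and 0.184 FPKM with PRDM16 and 0.199 and 0.0985 FPKM with PRDM16mut, overlapping groups. By level, PRDM16 of the MLL-AF9 cotransduction came first and its PRDM16mut group second. The stable cells and PRDM16mut of the E2A-HLF cotransduction overlapped one another.

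Fabp5, a relative that lies in the same gene cluster, moved with Fabp4 in the MLL-AF9 cotransduction at a higher level. It had 744 and 692 FPKM with PRDM16 and 209 and 205 FPKM with PRDM16mut (log2 fold change 1.79, SE 0.0563, limma, adjusted p = 1.16e-05). It fell in the E2A-HLF cotransduction (84.3 and 81.4 FPKM with PRDM16, against 110 and 115 FPKM with PRDM16mut; log2 fold change -0.44, limma, adjusted p = 7.90e-04) and rose in the stable cells (88.7 FPKM in each PRDM16 library, against 71.7 and 76.7 FPKM with PRDM16mut; log2 fold change 0.26, limma, adjusted p = 0.0305). Fabp3, the heart form of the family, also rose in the MLL-AF9 cotransduction (1.98 and 2.53 FPKM with PRDM16, against 0.0951 and 0.635 FPKM with PRDM16mut; log2 fold change 1.28, limma, adjusted p = 0.00299), where it passed the filter through the PRDM16 libraries alone. Of other genes in the cluster of Fabp4, Fabp9 was listed at 0 in all 12 libraries and Fabp12 did not exceed 0.0743 FPKM.

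Cidea was not tested in any experiment. After MLL-AF9 cotransduction it had 0.0320 and 0.335 FPKM with PRDM16 and 0.0216 and 0 FPKM with PRDM16mut, so that 1 library stood above the other 11. In the E2A-HLF cotransduction it had 0.0218 FPKM in replicate 1 of PRDM16 and 0 in the other 3 libraries, and in the stable cells it was listed at 0 in all 4. Its relative Cideb was tested in all 3 experiments and not called in any, with log2 differences of -0.06, 0.07 and 0.02.

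**Figure D2:**
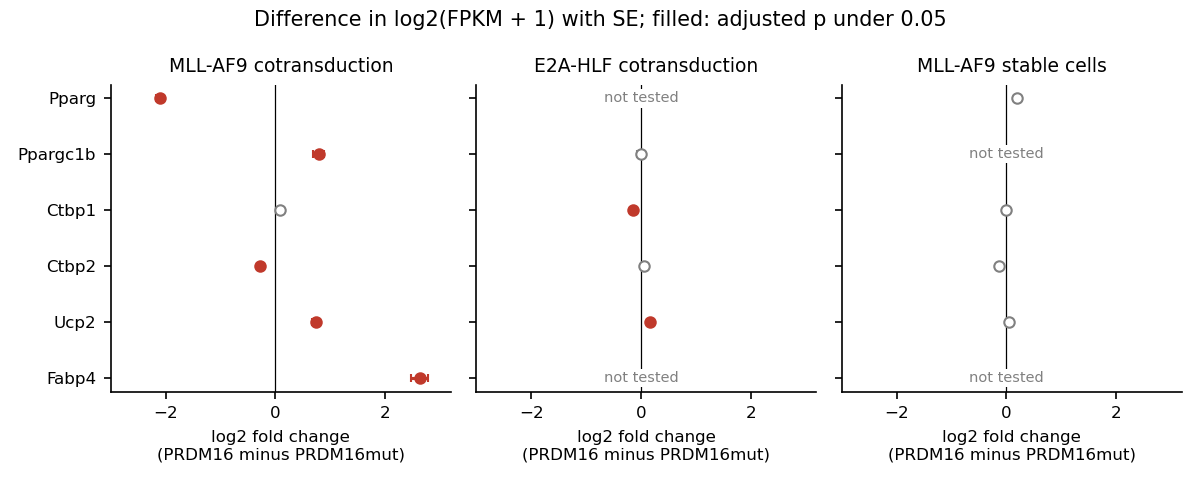
Log2 fold changes (x axis, PRDM16 minus PRDM16mut on log2(FPKM + 1)) of the 6 members tested in at least 1 experiment (rows), with bars for the SE from limma; filled red points were called at adjusted p under 0.05, open points were not, and members under the filter are marked as not tested. After MLL-AF9 cotransduction Fabp4 (2.63), Ppargc1b (0.79) and Ucp2 (0.73) lie right of 0 and Pparg (-2.11) and Ctbp2 (-0.27) left of it, while all 4 points of the stable cells lie within 0.2 of 0.

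The effect of PRDM16 on the members differed between experiments for Ucp2, Ctbp1 and Ctbp2, the members tested in every table. The difference of log2 fold changes was tested in 1 limma model, with the 12 libraries together, over 9475 genes, of which 71.4% were called for the MLL-AF9 against the E2A-HLF cotransduction, 64% for the MLL-AF9 cotransduction against the stable cells and 37% for the E2A-HLF cotransduction against the stable cells. Ucp2 rose more in the MLL-AF9 cotransduction than in the E2A-HLF cotransduction (difference 0.57, SE 0.0791, limma, adjusted p = 8.63e-05) and than in the stable cells (0.69, SE 0.0791, adjusted p = 2.98e-05). For the E2A-HLF cotransduction against the stable cells its difference was 0.12 (adjusted p = 0.268). The log2 fold change of Ctbp2 was lower in the MLL-AF9 than in the E2A-HLF cotransduction (-0.27 against 0.06; difference -0.34, SE 0.0597, adjusted p = 4.83e-04). Pparg, Fabp4 and Ppargc1b were under the filter in at least 1 table, and their differences were tested only with the filter removed. Pparg then differed by -2.55 between the MLL-AF9 and the E2A-HLF cotransduction (SE 0.116, limma, adjusted p = 5.17e-07).

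Markers of other cell types moved with the groups in the MLL-AF9 cotransduction, where Pparg and Fabp4 changed most. Of all tested genes 69.5% were called after MLL-AF9 cotransduction, 43.8% after E2A-HLF cotransduction and 6.36% in stable cells. The counts of markers below stand beside these shares. Of 9 macrophage markers tested 7 rose and 1 fell, with a summed level of 5183 and 5249 FPKM with PRDM16 and 2155 and 2169 FPKM with PRDM16mut, and none of them was at 0. Lyz2 made up most of that sum, which without it was 1195 and 1202 FPKM with PRDM16 and 360 and 361 FPKM with PRDM16mut. The macrophage marker that fell was Mrc1, with 9.80 and 10.3 FPKM with PRDM16 and 22.3 and 22.8 FPKM with PRDM16mut. Of 8 mast cell and basophil markers 7 fell and 1 rose, with sums of 212 and 213 FPKM with PRDM16 and 1853 and 1834 FPKM with PRDM16mut. These sums include Gata2, the marker that rose, at 95.4 and 104 FPKM with PRDM16 and 31.1 and 31.5 FPKM with PRDM16mut. Cma1 passed the filter only through the PRDM16mut libraries, and of the other 7 tested 6 fell and 1 rose. Of 8 endothelial markers 4 were tested, 3 of them higher. Pecam1 was at 61.0 and 64.8 FPKM with PRDM16 and 32.0 and 32.6 FPKM with PRDM16mut, Tek and Tie1 passed the filter only through the PRDM16 libraries, and Emcn was at 0. Of 8 stromal markers only Acta2 passed the filter, through the PRDM16mut libraries alone (0.498 and 0.703 FPKM with PRDM16, 3.18 and 3.29 FPKM with PRDM16mut), with Col1a2, Col3a1 and Cxcl12 at 0. Their part in the changes of Pparg and Fabp4 was not tested, and in bulk RNA fewer cells of a type cannot be told apart from less RNA per cell. After E2A-HLF cotransduction the macrophage sum was 416 and 389 FPKM with PRDM16 and 136 and 137 FPKM with PRDM16mut, with 4 markers higher and 3 lower of 7. That difference in sums rests mostly on Lyz2 (294 and 270 FPKM with PRDM16, 29.0 and 29.2 FPKM with PRDM16mut). Without Lyz2 the sums were 122 and 118 FPKM with PRDM16 and 107 and 108 FPKM with PRDM16mut. Emr1, Cd14 and Cd68 also rose (log2 fold changes 3.37, 2.60 and 0.19), while Ctss, Mertk and Mpeg1 fell (-1.53, -1.72 and -0.70). There the mast cell sum was 199 and 195 FPKM with PRDM16 and 152 and 158 FPKM with PRDM16mut, with 5 higher and 1 lower of 7. Hdc passed the filter only through the PRDM16 libraries and Cma1 only through the PRDM16mut libraries. Of the other 5 tested mast cell markers 4 were higher and 0 lower. In the stable cells the macrophage sum was 227 and 233 FPKM with PRDM16 and 197 FPKM in each PRDM16mut library, with 2 of 8 tested markers higher, and the mast cell sum was 18.7 and 17.3 FPKM with PRDM16 and 18.2 and 18.4 FPKM with PRDM16mut, with 0 of 4 called by limma and 0 at an unadjusted p under 0.05.

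Other PPAR target genes went in both directions. Their counts, and those of the lists that follow, stand beside the 69.5%, 43.8% and 6.36% of all tested genes called after MLL-AF9 cotransduction, after E2A-HLF cotransduction and in stable cells. After MLL-AF9 cotransduction 13 rose and 5 fell of 20 tested among 30 listed, and the median log2 fold change was 0.28, beside 0.01 over all tested genes. Besides Fabp5, the genes of smallest p were Cd36, a fatty acid importer (3.41 and 3.47 FPKM with PRDM16, against 0.520 and 0.421 FPKM with PRDM16mut; log2 fold change 1.60), Lpl, lipoprotein lipase (68.7 and 59.1 against 17.6 and 17.2 FPKM; 1.82), and Angptl4, an inhibitor of that lipase (3.91 and 3.66 against 9.79 and 8.94 FPKM; -1.11). Cd36 and Fabp3 passed the filter through the PRDM16 libraries alone, and of the other 18 tested 11 rose and 5 fell. The median of 0.28 includes both, so it is raised in part by genes that had to be high with PRDM16 to be tested. Adipoq, Plin1 and Fgf21 of the list were at 0 in all 4 libraries.

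After E2A-HLF cotransduction 3 PPAR target genes rose and 5 fell of 18 tested, with a median of -0.04. Plin2, a lipid droplet coat protein, rose (51.3 and 49.1 FPKM with PRDM16, against 28.1 and 28.0 FPKM with PRDM16mut; log2 fold change 0.82, limma, adjusted p = 5.05e-05). Lpl and Acadl, an enzyme of fatty acid oxidation, fell by 0.84 and 0.63 on the log2 scale. In stable cells 4 rose and none fell of 19 tested, with a median of 0.09, beside 0.01 over all tested genes, and the 4 were Plin2, Acadl, Fabp5 and Ech1 (log2 fold changes 0.23, 0.21, 0.26 and 0.17). With each library left out in turn, the calls of Plin2 and Fabp5 in stable cells held in 1 of 4 cases each and those of Acadl and Ech1 in none.

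**Figure D3:**
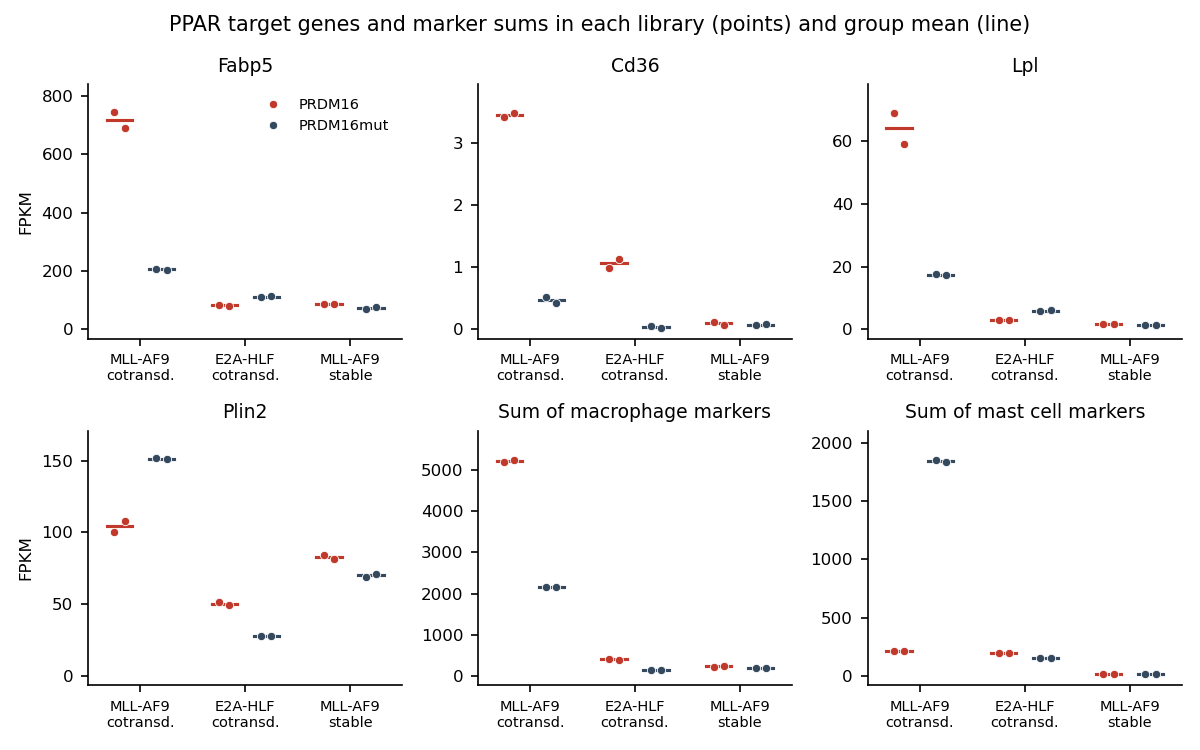
FPKM (y axis, linear, a separate scale in each panel) of 4 PPAR target genes and the summed FPKM of 2 marker lists in each library, with points for libraries, a line for the group mean, red for PRDM16 and dark blue for PRDM16mut. Fabp5, Cd36, Lpl and the macrophage sum lie higher with PRDM16 in the MLL-AF9 cotransduction (the macrophage sum at 5183 and 5249 against 2155 and 2169 FPKM), while Plin2 and the mast cell sum lie lower (the mast cell sum at 212 and 213 against 1853 and 1834 FPKM).

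Other genes of the brown fat programme were mostly low. Of 20 in the table, 7 were tested in the MLL-AF9 cotransduction and 3 rose and 4 fell. Dio2, Otop1 and Cited1, which all fell, passed the filter only through the PRDM16mut libraries, and of the other 4 tested 3 rose and 1 fell. Dio2, which activates thyroid hormone in brown fat, had 0.427 and 0.496 FPKM with PRDM16 and 3.14 and 3.29 FPKM with PRDM16mut (-1.53). Otop1, a proton channel of brown fat, had 0.0216 and 0.0796 FPKM with PRDM16 and 4.01 and 4.27 FPKM with PRDM16mut (-2.29). Cox7a1, a muscle and brown fat subunit of cytochrome c oxidase, fell by 1.37 and Acot2, a mitochondrial thioesterase, rose by 1.39 on the log2 scale. After E2A-HLF cotransduction 2 rose and 2 fell of 5 tested, and of the 4 besides Mpzl2, 2 rose and 1 fell. Mpzl2, a cell adhesion gene used as a brown fat marker, had 0.162 and 0.102 FPKM with PRDM16 and 4.91 and 5.15 FPKM with PRDM16mut (log2 fold change -2.41) and passed the filter only through the PRDM16mut libraries, Gyk rose by 0.68 and Acot2 fell by 0.57. Dio2 there was at 32.5 and 34.5 FPKM with PRDM16 and 21.9 and 21.5 FPKM with PRDM16mut (log2 fold change 0.60, limma, adjusted p = 2.37e-04), opposite in direction to the MLL-AF9 cotransduction. In stable cells Gyk, which encodes glycerol kinase, rose by 0.28, a call lost without any 1 of the 4 libraries, and the other 4 tested were not called.

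The other protein partners of PRDM16 were led by C/EBP factors, which act with PRDM16 in brown fat precursors. In the MLL-AF9 cotransduction 4 rose and 7 fell of 13 tested, and the median log2 fold change was -0.19. Smad3, a TGF-beta signal carrier, passed the filter only through the PRDM16 libraries, and of the other 12 tested 3 rose and 7 fell. Cebpd had 10.8 and 11.7 FPKM with PRDM16 and 40.8 and 38.8 FPKM with PRDM16mut (-1.74), and Cebpa had 38.2 and 42.7 FPKM with PRDM16 and 18.3 and 16.2 FPKM with PRDM16mut (1.19). Kdm1a, a histone demethylase, rose by 0.61 and Med1, a Mediator subunit, fell by 0.52 on the log2 scale. In the E2A-HLF cotransduction 4 rose and 2 fell of 13, with Cebpd (0.98), Cebpa (0.58) and Cebpb (0.998) all higher and Smad3 lower (-0.54). In stable cells none of 13 was called by limma, with 4 at an unadjusted p under 0.05. Ebf2, a brown fat regulator that works with PPAR-gamma, was listed at 0 in all 12 libraries.

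Among nuclear receptors and their coregulators 6 rose and 4 fell of 16 tested in the MLL-AF9 cotransduction, and the median log2 fold change was 0.17. Lpin1, a coactivator of PPAR-alpha in liver and an enzyme of lipid synthesis, rose by 1.22, Sirt3, a mitochondrial deacetylase, rose by 0.96, and Nr1h3, the liver X receptor alpha, had a log2 fold change of -0.71 and passed the filter only through the PRDM16mut libraries. Of the other 15 tested 6 rose and 3 fell, and the median of 0.17 includes Nr1h3. After E2A-HLF cotransduction 2 rose and 3 fell of 15, with Sirt3 lower (-0.32) and the corepressor Ncor1 higher (0.31, called in 2 of 4 cases with a library left out). Rxra passed the filter there only through the PRDM16mut libraries, and of the other 14 tested 2 rose and 2 fell. In the stable cells 1 of 14 was called, Pprc1, the remaining gene of the PGC-1 family, at 8.604 and 9.162 FPKM with PRDM16 and 11.44 and 10.95 FPKM with PRDM16mut (-0.30, limma, adjusted p = 0.0299), a call lost without any 1 of the 4 libraries.

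Genes of mitochondrial biogenesis that PGC-1 coactivators act on were all above the filter. After MLL-AF9 cotransduction 7 rose and 6 fell of 18, and the median log2 fold change was 0.07. Sdhb, a subunit of complex II, had 130 and 133 FPKM with PRDM16 and 59.4 FPKM in each PRDM16mut library (1.14). Nrf1 and Gabpa, transcription factors of nuclear genes for mitochondria, fell by 0.69 and 0.64, and Sod2, the mitochondrial superoxide dismutase, rose by 0.43 on the log2 scale. After E2A-HLF cotransduction 3 rose, Mfn2 (0.25), Idh3a (0.21) and Sod2 (0.18), and in the stable cells 1, Tfb1m (0.19). The calls of Idh3a held in 2, of Sod2 in 1 and of Tfb1m in 0 of the 4 cases with a library left out.

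Of the CtBP corepressor complex, 7 rose and 9 fell of 19 tested in the MLL-AF9 cotransduction, and the median log2 fold change was -0.13. Zfpm1, a GATA cofactor that binds CtBP, had 33.6 and 44.1 FPKM with PRDM16 and 4.53 FPKM in each PRDM16mut library (2.84), and Tgif1, a homeobox repressor, rose by 1.91. Rreb1, a zinc finger factor, fell by 0.73 on the log2 scale, and Ikzf4, an Ikaros family factor, had a log2 fold change of 0.68 and passed the filter only through the PRDM16 libraries. Of the other 18 tested 6 rose and 9 fell, and the median of -0.13 includes Ikzf4. After E2A-HLF cotransduction 5 rose and 3 fell of 18, with Tgif1 lower (-0.55), Zfp217 higher (0.30) and Kdm1a lower (-0.19, called in 1 of 4 cases with a library left out). In stable cells none of 15 was called by limma, with 4 at an unadjusted p under 0.05.

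**Figure D4:**
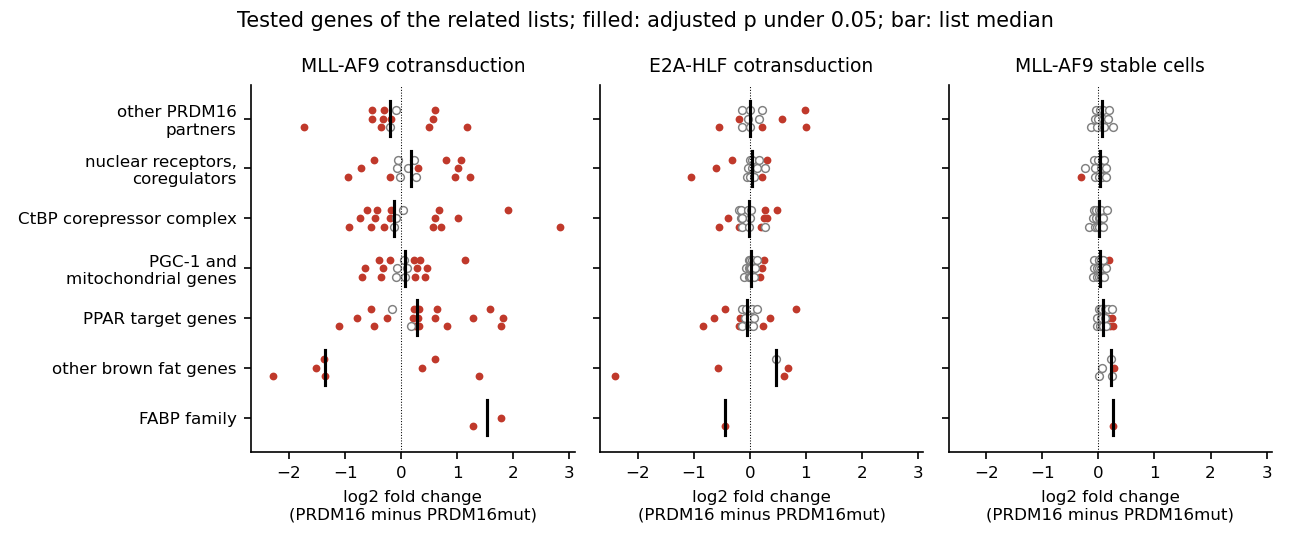
Log2 fold changes (x axis, PRDM16 minus PRDM16mut) of the tested genes in 7 related lists (rows) in the 3 experiments; filled red points were called at adjusted p under 0.05, open points were not, and the black bar is the median of the list. The spread is widest in the MLL-AF9 cotransduction, from -2.29 (Otop1) to 2.84 (Zfpm1), and points of the stable cells lie between -0.30 (Pprc1) and 0.28 (Gyk). The points and medians include genes that passed the filter only through the group where they are high. In the MLL-AF9 cotransduction the median of the other brown fat genes, -1.37, includes Dio2, Otop1 and Cited1, which passed only through PRDM16mut. Of the other 4 tested there 3 rose and 1 fell.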

How the data were processed

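RNA from 12 libraries in 6 groups of 2 was analysed. Per the submitters' processing notes, reads were handled with Bowtie2 2.0.0.7, TopHat2 2.0.3 and Cuffdiff on build mm9. The authors deposited 3 tables of FPKM, 1 per experiment. How libraries were scaled against each other is not stated, and unequal scaling would enter the fold changes. The FPKM were analysed as deposited, with a pseudocount of 1 and a filter of 1 FPKM in 2 libraries, in R 4.3.3 with limma 3.58.1 (variance trend, two-sided, Benjamini-Hochberg over each table). Each table was fitted alone. Differences between experiments were tested in 1 fit with 6 groups, leaving out duplicated symbols and symbols that read as dates. The procedure was tested on simulated data. Alternatives covered the pseudocount (0.1, 0.5), the filter (none, 5 FPKM), quantile normalization, median centring, the spread over all 12 libraries, a replicate block and each library left out. The genes, lists and tests were chosen with earlier results of these data known. Named besides the 9 genes are, per list and experiment, up to 4 called genes of smallest p and defining genes that were not detected, and the 3 genes of most similar pattern to a member called in at least 2 experiments. Single genes named beyond that rule, among them Ppard, Cideb, Pecam1, Acta2, Lipe, Hoxa9, Kit, Cd34 and Itgam, were chosen after their values were seen. Promoters came from RefSeq on GRCm38.p6, another build than that of the FPKM, and were matched by symbol.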

Additional observations from a re-analysis of the deposited data

Results flagged for a closer look

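The effect of PRDM16 differed between experiments for 6 of the 9 genes, in 11 differences of log2 fold changes tested with limma. These were 5 of the 9 differences tested with the filter, and 6 tested without it. Counts over so few members are not set apart from the shares of all genes given below, and no explanation was tested. In the filtered fit, where 71.4%, 64% and 37% of 9475 genes differed for the MLL-AF9 against the E2A-HLF cotransduction, the MLL-AF9 cotransduction against the stable cells and E2A-HLF against the stable cells, Ucp2 differed by 0.57 between the MLL-AF9 and the E2A-HLF cotransduction and by 0.69 between the MLL-AF9 cotransduction and the stable cells. Ctbp1 differed by 0.24 (adjusted p = 0.0154) and Ctbp2 by -0.34 between the MLL-AF9 and the E2A-HLF cotransduction. For the E2A-HLF cotransduction against stable cells Ctbp2 differed by 0.20 (adjusted p = 0.0270), a call lost without any 1 of 7 of the 8 libraries of these experiments.

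With the filter removed, 54.5% and 46.7% of 17504 genes differed for the MLL-AF9 cotransduction against the E2A-HLF cotransduction and against the stable cells. For the E2A-HLF cotransduction against the stable cells the share was 27.7%. Pparg differed by -2.55 between the MLL-AF9 and the E2A-HLF cotransduction and by -2.31 between the MLL-AF9 cotransduction and the stable cells (adjusted p = 1.59e-06). Fabp4 differed by 2.86 (adjusted p = 5.55e-06) and by 2.48 (adjusted p = 2.06e-05) in the same pairs. Both PRDM16 libraries of the E2A-HLF cotransduction were listed at 0 for Fabp4, so its difference there depends on the pseudocount. Ppargc1b differed by 0.80 (adjusted p = 2.94e-04) and by 0.84 (adjusted p = 3.01e-04) in these pairs. In each of the 3 genes the MLL-AF9 cotransduction held the larger change.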

How the results depend on the processing

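The fall of Pparg and the rises of Fabp4 and Ucp2 in the MLL-AF9 cotransduction kept sign and call under each setting that could test them. With a filter at 5 FPKM Pparg passed only through the PRDM16mut libraries and Fabp4 only through the PRDM16 libraries. For these genes that setting is no independent check. Ppargc1b passed the filter of 1 FPKM in this experiment only through the PRDM16 libraries. It was tested in 2 of the 4 cases with a library left out, so its call is no independent check. Without 1 library, 1 to 2 members were lower in that experiment, and in a fit pooling the spread of the 12 libraries 1 was higher and 1 lower, since Pparg, Fabp4 and Ppargc1b failed the filter of at least 1 other table and were not in that fit. In the E2A-HLF cotransduction 0 members were higher and 0 lower with a filter at 5 FPKM, and 0 were higher after quantile normalization and after median centring. Without 1 library, 0 to 1 was higher and 0 to 1 lower. Replicate numbers are shared by the groups but nothing in the labels pairs them, and deviations of same-numbered libraries correlated at 0.067, 0.289 and 0.319. With a replicate block 0 members were higher (Ucp2, adjusted p = 0.113) and 0 lower (Ctbp1, adjusted p = 0.0948) in the E2A-HLF cotransduction. Genes called in the stable cells numbered 673, but 41 without a filter, 298 with the shared spread and 67 to 219 without 1 library. Of the listed genes called, 44 of 75 after MLL-AF9 cotransduction, 18 of 37 after E2A-HLF cotransduction and 0 of 8 in the stable cells were called in all 4 cases with a library left out; some were under the filter there. The same share over all called genes is not given here, so these counts do not set the listed genes apart. Signs turned for values near 0. In the E2A-HLF cotransduction Ppargc1b had 0.071 after quantile normalization and -0.039 to 0.031 without 1 library, and Prdm16 had -0.10 to 0.27. Ctbp1 in the stable cells had -0.015 to 0.0099. The call of the Ctbp2 difference between E2A-HLF and stable cells was lost after median centring (adjusted p = 0.0529) and in the block (0.0578), and the Ctbp1 difference between the cotransductions was lost without replicate 2 of PRDM16mut of either (0.0596 for MLL-AF9, 0.0610 for E2A-HLF). The causes were not tested. With no counts and 2 libraries per group, values under about 1 FPKM cannot be read as present or absent.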
